A study of Mus musculus with 18 samples.

Results

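The SLC25 family of mitochondrial carriers was followed through induced erythroid maturation of a mouse cell line. Members were the genes whose platform symbol is Slc25a followed by a number, with Slc25a37 left out, and each was read from its single-gene probe set with the highest mean. The rule found 43 of the 18194 genes that had a single-gene probe set, and 38 of the 43 passed the filter on low values that left 12720 genes to test. Slc25a24, Slc25a27, Slc25a31, Slc25a48 and Slc25a54 did not pass, since none of the 18 arrays read above that array's 40th percentile for them. The cells were G1E-ER4, an erythroid progenitor line in which the Gata1 gene is disrupted and a fusion of GATA1 with the estrogen receptor ligand-binding domain is expressed from an introduced construct, so that estradiol activates it. Estradiol was given at 20 nM, and RNA was hybridised to 18 Affymetrix arrays, 3 for each time of 0, 3, 7, 14, 21 or 30 h. Every group carried the same disruption and the same fusion, and the 0 h group was the only control, so the effects of estradiol, of GATA1 activity and of time in culture cannot be told apart. The arrays are described as biological replicates of 1 cell line without mention of separate cultures, so p-values measure only the spread between these samples.

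Most SLC25 proteins are carriers of the mitochondrial inner membrane that exchange or import metabolites, nucleotides, cofactors and ions, each built from repeats of a common membrane module. They are encoded in the nucleus, made in the cytosol and inserted into the inner membrane by a dedicated import path. Red cell precursors lean on several of them, because heme synthesis begins in the matrix from glycine and ends there with the insertion of iron. The mature cell finally discards its mitochondria.

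Values are the deposited log2 expression levels, and a difference of 1 is a 2-fold difference. Because probe sets differ in brightness, a level is compared between times for 1 gene, and where the difference between a pair of genes is given, only its change with time is read. Changes were tested with limma's moderated test fitted to all 18 arrays, and a gene was called at a Benjamini-Hochberg adjusted p under 0.05 over the 12720 genes. Every comparison with 0 h used the same 3 arrays at 0 h. Replicate arrays were alike, with a mean correlation within a time of 0.995 to 0.998, and array medians ran from 4.04 to 4.09. The erythroid marker list, summed as linear levels over its 8 genes on the array, ran from 13180 to 13576 at 0 h and from 27979 to 28477 at 30 h, and 7 of the 8 lay above the 40th percentile at both times. The progenitor list of 4 genes went from between 11461 and 11838 to between 548 and 588, the list of 5 mast cell and basophil genes from between 324 and 413 to between 37 and 43, and the list of 5 megakaryocyte genes from between 419 and 452 to between 179 and 197. Not every gene moved with the sum of its list. Against 0 h, the megakaryocyte gene Gp9 was called higher at 30 h, by 0.66, and Itga2b was not called. The erythroid genes Hba-a2 and Epor and the mast cell and basophil gene Mcpt8 were not called at 30 h either. The gap between the 3′ and 5′ control probe sets of Gapdh was 1.13 log2 units at 0 h and 1.52 at 30 h. The part that these marker levels or RNA quality played in the carriers' changes was not tested. In these bulk samples, fewer cells of a type and less RNA per cell cannot be told apart.

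At 30 h the family had moved in both directions. Of the 38 tested members, 16 were called higher and 15 lower than at 0 h, against 36.6% and 33% of all tested genes. The members' median change was 0.16 log2 units, against 0.09 for all genes, and the median size of change regardless of sign was 0.65 against 0.46. At least 2-fold changes were called in 3 members that rose, Slc25a38, Slc25a2 and Slc25a44, and in 9 that fell, against 9.16% and 13.1% of all genes. The 9 were Slc25a13, Slc25a23, Slc25a15, Slc25a32, Slc25a4, Slc25a10, Slc25a26, Slc25a22 and Slc25a42. These lists hold for the probe sets used. Dimmer probe sets of Slc25a10 and Slc25a42 gave falls under 2-fold, -0.55 and -0.50. Dimmer ones of some unlisted members passed 2-fold, among them Slc25a51 at 2.23. Both directions together made 31 called members, against 69.5% of all genes. In all 31 the 3 arrays at 30 h lay apart from the 3 at 0 h, a separation seen for 72.3% of all tested genes. The F test over the 6 times called 34 of the 38 members, against 74.3% of all genes.

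**Figure D1:**
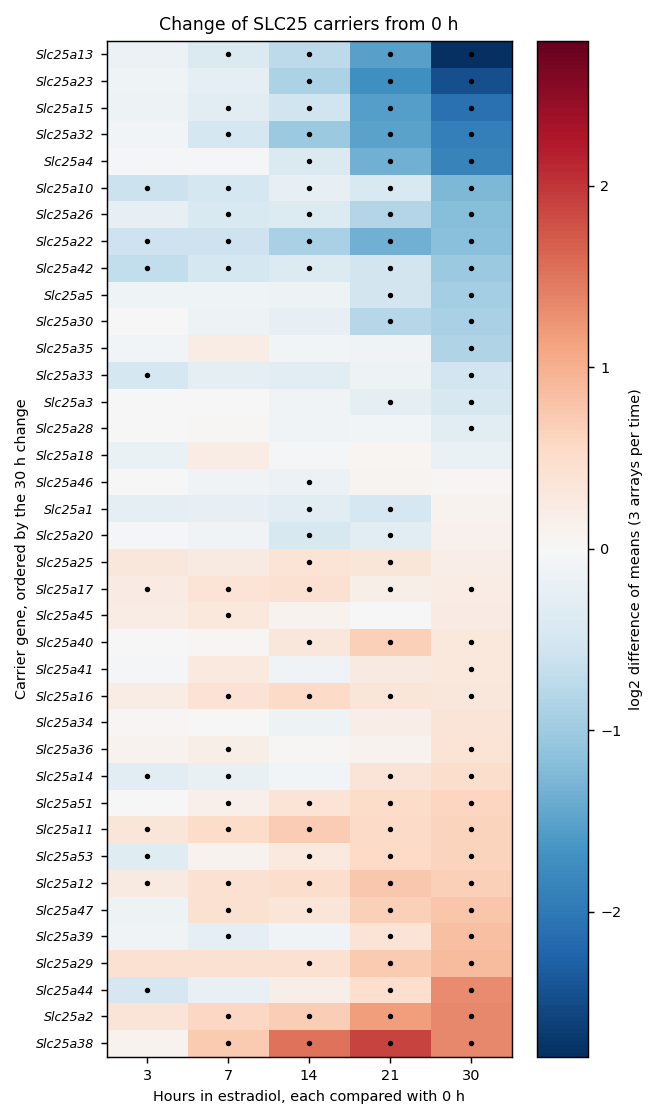
Heat map of the mean log2 change from 0 h (colour) for the 38 tested SLC25 members (rows) at 3, 7, 14, 21 and 30 h in estradiol (columns), 3 arrays per time, with a dot where limma's adjusted p was under 0.05. At 30 h the rows ran from -2.80 for Slc25a13 to 1.35 for Slc25a38.

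On the probe sets used, Slc25a38 and Slc25a2 rose by 1.35 and 1.34 and Slc25a13 fell furthest, and all 3 carry amino acids. The order of the first 2 turned without replicate 3 at 0 h, at 1.32 and 1.42, and without replicate 2 at 30 h, at 1.42 and 1.58. Of 9 amino acid carriers tested, 5 were called higher and 3 lower at 30 h, against 36.6% and 33% of all genes. Slc25a38 supplies the matrix with glycine, the substrate for the first step of heme synthesis, and its loss causes an inherited sideroblastic anemia. Slc25a38 read 7.73, 7.55 and 7.56 at 0 h, 7.83, 7.63 and 7.65 at 3 h, and 8.35, 8.37 and 8.34 at 7 h. It read 9.18, 8.96 and 9.26 at 14 h, 9.49, 9.43 and 9.60 at 21 h, and 8.99, 8.80 and 9.09 at 30 h. Every array from 7 h onward lay above all 6 arrays at 0 and 3 h, the arrays at 21 h were the highest, and those at 30 h lay below them. The rise at 30 h was 1.35 ± 0.09 (SE) with adjusted p = 1.16e-09, and that at 21 h was 1.90 ± 0.09 (SE) with adjusted p = 3.49e-11. The step from 21 to 30 h was -0.55 ± 0.09 (SE) with adjusted p = 0.000123, and with arrays scaled on the hybridisation controls it was -0.36 with adjusted p = 0.193.

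Slc25a12 and Slc25a13 encode the aspartate-glutamate carriers of the malate-aspartate shuttle, which moves reducing equivalents into mitochondria. Slc25a13 read 9.57, 9.66 and 9.34 at 0 h, 9.44, 9.29 and 9.32 at 3 h, and 9.02, 9.28 and 9.03 at 7 h. It read 8.88, 8.65 and 8.86 at 14 h, 8.11, 8.03 and 7.88 at 21 h, and 6.78, 6.67 and 6.72 at 30 h. The arrays at 14, 21 and 30 h stepped down without overlap, and the 3 arrays at 30 h were the lowest of all 18. The fall at 30 h was -2.80 ± 0.10 (SE) with adjusted p = 4.61e-13, the largest among the members. Slc25a12 read 9.19, 9.11 and 9.16 at 0 h, 9.46, 9.43 and 9.34 at 3 h, and 9.56, 9.65 and 9.54 at 7 h. It read 9.61, 9.65 and 9.69 at 14 h, 9.97, 9.86 and 9.92 at 21 h, and 9.82, 9.81 and 9.86 at 30 h. Arrays at 3 h already lay above all those at 0 h, and those at 21 and 30 h were the highest. By 30 h it had changed by 0.68 ± 0.05 (SE) with adjusted p = 9.28e-09. The pair thus moved in opposite directions.

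The carriers of ornithine and other basic amino acids did not move alike. Slc25a15 exchanges ornithine for citrulline in the urea cycle. Slc25a15 read 9.09, 9.16 and 9.24 at 0 h, 8.96, 9.09 and 8.99 at 3 h, and 8.86, 8.91 and 8.84 at 7 h. It read 8.62, 8.55 and 8.63 at 14 h, 7.61, 7.55 and 7.73 at 21 h, and 7.24, 6.93 and 7.03 at 30 h. The arrays at 21 and 30 h lay more than 1 log2 unit below every array at 0 h. The 30 h change was -2.10 ± 0.07 (SE) with adjusted p = 6.06e-13. Slc25a2 is a second ornithine carrier. Slc25a2 read 3.25, 3.06 and 3.42 at 0 h, 3.62, 3.87 and 3.29 at 3 h, and 3.66, 3.97 and 3.83 at 7 h. It read 3.83, 4.06 and 3.89 at 14 h, 4.51, 4.73 and 4.0 at 21 h, and 4.72, 4.09 and 4.93 at 30 h. The 0 h arrays lay around the 40th percentile of their arrays, which ran from 3.22 to 3.25, and all those from 7 h onward were higher. Its rise at 30 h was 1.34 ± 0.21 (SE) with adjusted p = 3.2e-05, from a dim start and with arrays at 30 h that spread from 4.09 to 4.93.

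Slc25a29 carries basic amino acids such as arginine and lysine. Slc25a29 read 3.82, 3.63 and 4.20 at 0 h, 4.24, 4.33 and 4.33 at 3 h, and 4.11, 4.24 and 4.58 at 7 h. It read 4.28, 4.34 and 4.31 at 14 h, 4.60, 4.36 and 4.90 at 21 h, and 4.66, 4.60 and 5.04 at 30 h. All 3 arrays at 30 h were above all 3 at 0 h, but the arrays at 3, 7 and 14 h overlapped one another. At 30 h the difference from 0 h was 0.88 ± 0.16 (SE) with adjusted p = 0.00015. Slc25a44 brings branched-chain amino acids into mitochondria, a role described in brown fat. Slc25a44 read 9.37, 9.53 and 9.12 at 0 h, 8.82, 8.86 and 8.92 at 3 h, and 9.0, 9.21 and 9.15 at 7 h. It read 9.71, 9.28 and 9.51 at 14 h, 9.68, 9.80 and 9.97 at 21 h, and 10.72, 10.74 and 10.50 at 30 h. Its 3 h arrays lay below every array at 0 h, and its 30 h arrays above every other array. The early change was -0.47 ± 0.12 (SE) with adjusted p = 0.00774, and that at 30 h was 1.32 ± 0.12 (SE) with adjusted p = 4.92e-08.

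The glutamate carriers Slc25a22 and Slc25a18 complete the amino acid group. Slc25a22 read 7.41, 7.46 and 7.44 at 0 h, 6.88, 6.86 and 6.81 at 3 h, and 6.84, 6.94 and 6.81 at 7 h. It read 6.43, 6.62 and 6.53 at 14 h, 6.13, 6.12 and 6.02 at 21 h, and 6.42, 6.11 and 6.30 at 30 h. The drop was already present on all 3 arrays at 3 h, where the change was -0.59 ± 0.07 (SE) with adjusted p = 2.73e-05. The lowest arrays were at 21 h and 30 h, and at 30 h the change was -1.16 ± 0.07 (SE) with adjusted p = 7.03e-10. Slc25a18 read from 2.84 to 3.64 over all 18 arrays, was called at no time against 0 h, and gave -0.18 ± 0.13 (SE) at 30 h.

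**Figure D2:**
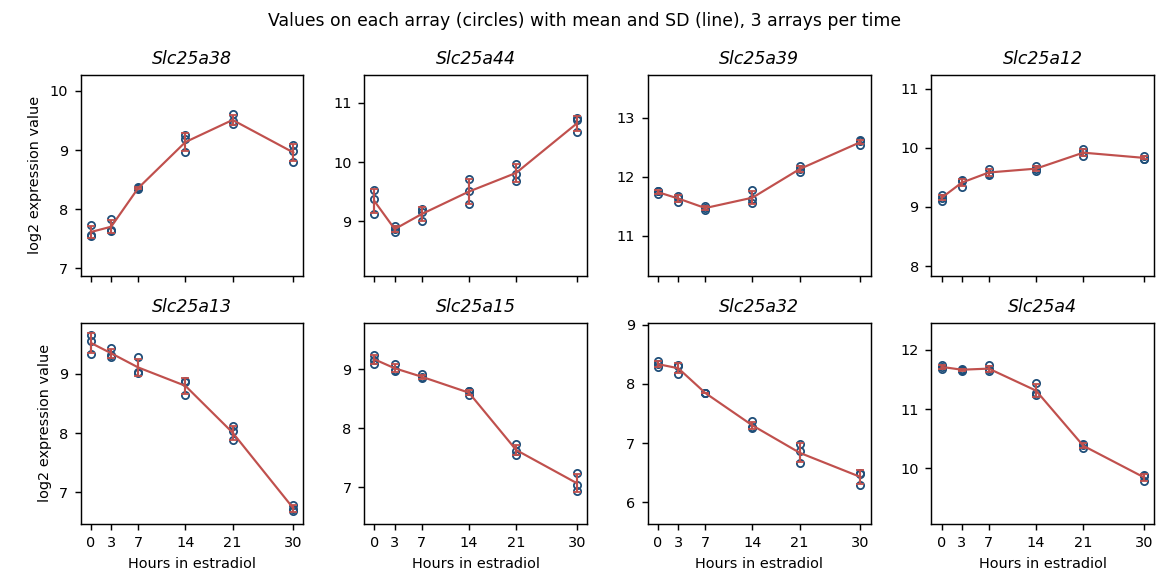
Log2 expression level (vertical axis, 3.4 log2 units in every panel) against hours in estradiol for 8 SLC25 members, with each circle an array and the line and bars the mean and SD of 3 arrays. Slc25a38 peaks at 21 h with a mean of 9.51, Slc25a13 declines to 6.73 at 30 h, and Slc25a44 dips to 8.87 at 3 h before reaching 10.65.

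The sequence before a transcript start is shown for the glycine carrier Slc25a38, which rose, and for the ornithine carrier Slc25a15, one of the 3 largest fallers, to set beside their opposite courses. The letters come from RefSeq on mouse build GRCm38.p6, cover 250 bases before a start listed there, and read 5′ to 3′ on the gene's strand. Capitals mark any match, on either strand, to a GATA word, namely the word AGATAA, the variant TGATAA, the variant AGATAG or the variant TGATAG. They also mark CACGTG, a form of the E-box, which reads the same on both strands and can share end bases with a GATA word. Other forms of the E-box were not searched for or marked. The Slc25a38 window is chr9:120110132-120110381 on the plus strand, and its last 5 bases lie inside the annotated span of the gene. The Slc25a15 window is chr8:22398622-22398871 on the minus strand, outside the gene's span, and a second listed start lies within the span.
Slc25a38: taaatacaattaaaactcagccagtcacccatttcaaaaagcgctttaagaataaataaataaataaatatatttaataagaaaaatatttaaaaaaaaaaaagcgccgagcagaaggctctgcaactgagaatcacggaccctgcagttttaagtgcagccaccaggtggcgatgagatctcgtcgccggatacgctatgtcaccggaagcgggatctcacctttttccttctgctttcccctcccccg
Slc25a15: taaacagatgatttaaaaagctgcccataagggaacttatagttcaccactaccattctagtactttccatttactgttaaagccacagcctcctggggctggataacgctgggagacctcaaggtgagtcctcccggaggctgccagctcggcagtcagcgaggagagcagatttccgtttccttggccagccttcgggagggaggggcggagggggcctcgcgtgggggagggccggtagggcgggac
Neither printed window held either set of letters. The window before the second listed Slc25a15 start, not printed, held CACGTG at -77 from that start. Slc25a15 therefore counts below as a member with CACGTG. The window of Slc25a13, the largest faller, also not printed, held CACGTG at -125. The last 131 bases of that window, which hold the match, lie inside the annotated span of the gene. Promoter entries were found for 34 of the 43 members. A GATA word stood in 5 of the 34, which were 2 of 12 called higher and 3 of 12 called lower at 30 h, and in 21.0% of the 10222 tested genes with an entry. CACGTG stood in 7 of the 34, again 2 of 12 called higher and 3 of 12 called lower, and in 9.64% of those tested genes. The 34 include 4 members that were not tested, of which 0 held a GATA word and 1 held CACGTG. Over all 27025 genes with an entry the shares were 29.7% and 6.86%. A match is a description of letters in this window and not of a bound site.

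Of 6 carriers of adenine nucleotides and phosphate tested, 4 were called lower and 1 higher at 30 h. The shares of all genes were 33% and 36.6%. With hybridisation-control scaling 3 were lower and 1 higher, against 20.3% and 39.3% of all genes. Slc25a4 and Slc25a5 encode ADP/ATP carriers, which hand mitochondrial ATP to the cytosol. Slc25a4 read 11.75, 11.71 and 11.68 at 0 h, 11.68, 11.65 and 11.67 at 3 h, and 11.67, 11.74 and 11.64 at 7 h. It read 11.27, 11.23 and 11.43 at 14 h, 10.33, 10.41 and 10.39 at 21 h, and 9.89, 9.87 and 9.78 at 30 h. The arrays at 0, 3 and 7 h overlapped, those at 14 h lay below them, and those at 21 and 30 h were lower again without overlap. The change of Slc25a4 at 30 h was -1.87 ± 0.06 (SE) with adjusted p = 1.28e-13. Slc25a5 read from 12.66 to 12.78 at 0 h and from 11.75 to 11.79 at 30 h, with no overlap and a change of -0.95 ± 0.06 (SE) with adjusted p = 1.34e-09. It was first called lower at 21 h, where Slc25a4 was first called lower at 14 h. With hybridisation-control scaling Slc25a4 was -0.17 at 14 h with adjusted p = 0.517, and both were first called at 21 h.

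Slc25a23 and Slc25a25 are calcium-regulated carriers of ATP-magnesium and phosphate. Slc25a23 read 6.86, 6.47 and 6.69 at 0 h, 6.55, 6.53 and 6.56 at 3 h, and 6.47, 6.33 and 6.36 at 7 h. It read 5.83, 5.75 and 5.78 at 14 h, 5.13, 4.69 and 5.05 at 21 h, and 4.32, 3.93 and 4.39 at 30 h. The arrays at 14, 21 and 30 h stepped down without overlap, and replicate 2 at 30 h was the lowest of all 18. Its change at 30 h was -2.46 ± 0.13 (SE) with adjusted p = 5e-11, the largest fall after that of Slc25a13. Slc25a25 was called against 0 h only before 30 h, gave 0.19 ± 0.12 (SE) with adjusted p = 0.153 at 30 h, and was not called by the F test over time. Slc25a3, the phosphate carrier that feeds ATP synthase, changed by -0.46 ± 0.05 (SE) with adjusted p = 2.17e-07, and with hybridisation-control scaling by -0.26 with adjusted p = 0.249. Slc25a41, a related ATP-magnesium carrier with a dim probe set, gave 0.30 ± 0.12 (SE) with adjusted p = 0.0335. Its call was lost with trended and robust variance and on leaving out any 1 of replicates 2 and 3 at 0 h or at 30 h.

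Carriers of nucleotides, cofactors and methyl donors split evenly, with 4 of 8 called higher and 4 lower at 30 h. The shares of all genes were 36.6% and 33%. Slc25a32 brings folate into mitochondria, and has also been described as a carrier of flavin cofactor. Slc25a32 read 8.34, 8.38 and 8.28 at 0 h, 8.32, 8.31 and 8.17 at 3 h, and 7.85, 7.84 and 7.85 at 7 h. It read 7.37, 7.26 and 7.27 at 14 h, 6.86, 6.98 and 6.66 at 21 h, and 6.49, 6.30 and 6.50 at 30 h. From 7 h onward each time lay below the one before it without overlap. By 30 h it had changed by -1.91 ± 0.08 (SE) with adjusted p = 3.56e-12. Slc25a26 imports S-adenosylmethionine, the methyl donor. Slc25a26 read 7.57, 7.60 and 7.77 at 0 h, 7.46, 7.43 and 7.35 at 3 h, and 7.29, 7.22 and 7.13 at 7 h. It read 7.28, 7.30 and 7.21 at 14 h, 6.87, 6.82 and 6.81 at 21 h, and 6.47, 6.22 and 6.68 at 30 h. All arrays from 7 h onward lay below all those at 0 h, and the 30 h arrays were the lowest. The 30 h change was -1.19 ± 0.09 (SE) with adjusted p = 6.85e-09.

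Slc25a42, a coenzyme A carrier, had the largest fall of any member at 3 h, -0.68 ± 0.09 (SE) with adjusted p = 4.09e-05, and stood at -1.03 ± 0.09 (SE) with adjusted p = 3.27e-08 at 30 h. The pyrimidine nucleotide carriers Slc25a33 and Slc25a36 went opposite ways, at -0.53 ± 0.13 (SE) with adjusted p = 0.00149 and 0.39 ± 0.06 (SE) with adjusted p = 1.42e-05. With hybridisation-control scaling Slc25a33 was -0.32 with adjusted p = 0.145. Slc25a51, which imports NAD, rose by 0.60 ± 0.05 (SE) with adjusted p = 4.92e-08 on its brightest probe set. Slc25a16 gave 0.33. Slc25a17, a peroxisomal carrier of cofactors, gave 0.21 ± 0.06 (SE) with adjusted p = 0.00643. That last call was lost with hybridisation-control scaling, at 0.41 with adjusted p = 0.0639, and with the mean of each gene's probe sets, at 0.0072.

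Among carriers of carboxylates, Slc25a10 fell, Slc25a11 rose and Slc25a1 was not called at 30 h. Slc25a10 exchanges malate and succinate for phosphate. Slc25a10 read 7.67, 7.52 and 7.72 at 0 h, 7.06, 7.05 and 6.98 at 3 h, and 7.28, 7.11 and 7.04 at 7 h. It read 7.27, 7.43 and 7.53 at 14 h, 7.26, 7.14 and 7.22 at 21 h, and 6.29, 6.31 and 6.55 at 30 h. It was low at 3 and 7 h, overlapped the 0 h arrays at 14 h, and was lowest at 30 h on every array. Slc25a10 was still called lower than 0 h at 14 h, at -0.23 with adjusted p = 0.0417, and at 21 h, at -0.43 with adjusted p = 0.000497. With hybridisation-control scaling no time before 30 h was called, and the 14 h value was -0.0012 with adjusted p = 0.997. At 30 h the difference from 0 h was -1.25 ± 0.09 (SE) with adjusted p = 2.03e-09, of which the step from 21 to 30 h made up -0.83 ± 0.09 (SE) with adjusted p = 1.65e-06. Slc25a11, the oxoglutarate-malate carrier of the malate-aspartate shuttle, read from 8.27 to 8.42 at 0 h and from 8.94 to 9.01 at 30 h. It was called higher at every time from 3 h, with 0.61 ± 0.06 (SE) with adjusted p = 2.5e-07 at 30 h. Slc25a1, which exports citrate for lipid synthesis, was lower at 14 and 21 h, calls lost with hybridisation-control scaling (adjusted p = 0.734 and 0.0585), and was at 0.10 ± 0.11 (SE) with adjusted p = 0.408 by 30 h.

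Of the glutathione and iron carriers, 2 of 3 were called higher and 1 lower at 30 h, against 36.6% and 33% of all genes. Slc25a39 and Slc25a40 import glutathione into mitochondria. Slc25a39 read 11.76, 11.71 and 11.75 at 0 h, 11.57, 11.68 and 11.65 at 3 h, and 11.47, 11.50 and 11.44 at 7 h. It read 11.55, 11.77 and 11.62 at 14 h, 12.08, 12.13 and 12.19 at 21 h, and 12.54, 12.61 and 12.60 at 30 h. The 7 h arrays lay below all those at 0 h, and the arrays at 21 and 30 h were above every earlier array. The change of Slc25a39 at 30 h was 0.85 ± 0.06 (SE) with adjusted p = 2.12e-09. Slc25a40 peaked at 21 h, between 8.91 and 9.16, and its change at 30 h was 0.29 ± 0.08 (SE) with adjusted p = 0.00617. Slc25a28, a mitoferrin that carries iron and the relative of the erythroid mitoferrin Slc25a37, gave -0.31 ± 0.05 (SE) with adjusted p = 6.28e-05, and -0.10 with adjusted p = 0.656 under hybridisation-control scaling. Slc25a37 itself, outside the set by the rule, rose by 2.66 log2 units.

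The remaining members held few large changes. Slc25a47 read 7.00, 7.06 and 7.15 at 0 h, 6.89, 6.98 and 6.90 at 3 h, and 7.45, 7.58 and 7.46 at 7 h. It read 7.30, 7.41 and 7.55 at 14 h, 8.07, 7.57 and 7.57 at 21 h, and 7.97, 7.65 and 7.93 at 30 h. Slc25a47 was above all 0 h arrays from 7 h onward, with 1 array at 21 h standing above the other 2. Its change at 30 h was 0.78 ± 0.12 (SE) with adjusted p = 2.06e-05. Slc25a47 had 1 probe set, of the kind that can match several transcripts, so it was not tested where such probe sets were left out. Slc25a53 read 6.43, 6.47 and 6.56 at 0 h, 6.29, 6.18 and 6.01 at 3 h, and 6.66, 6.60 and 6.51 at 7 h. It read 6.77, 6.71 and 6.83 at 14 h, 7.25, 7.07 and 6.80 at 21 h, and 7.22, 6.97 and 7.16 at 30 h. The 3 h arrays of Slc25a53 lay below all those at 0 h and the 14, 21 and 30 h arrays above them, and the change at 30 h was 0.63 ± 0.10 (SE) with adjusted p = 4.89e-05. Of the uncoupling-protein relatives, Slc25a14 gave 0.48 ± 0.06 (SE) with adjusted p = 1.86e-06 and Slc25a30 gave -0.91 ± 0.16 (SE) with adjusted p = 7.72e-05. Slc25a35 fell with -0.83 ± 0.13 (SE) with adjusted p = 2.73e-05. Slc25a20, which exchanges carnitine and acylcarnitines for fatty acid oxidation, was called lower at 14 and 21 h, calls lost with hybridisation-control scaling (adjusted p = 0.414 and 0.258), and gave 0.13 ± 0.06 (SE) with adjusted p = 0.062 at 30 h. Slc25a34, Slc25a45 and Slc25a46 were not called at 30 h, with changes of 0.36, 0.22 and 0.04.

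**Figure D3:**
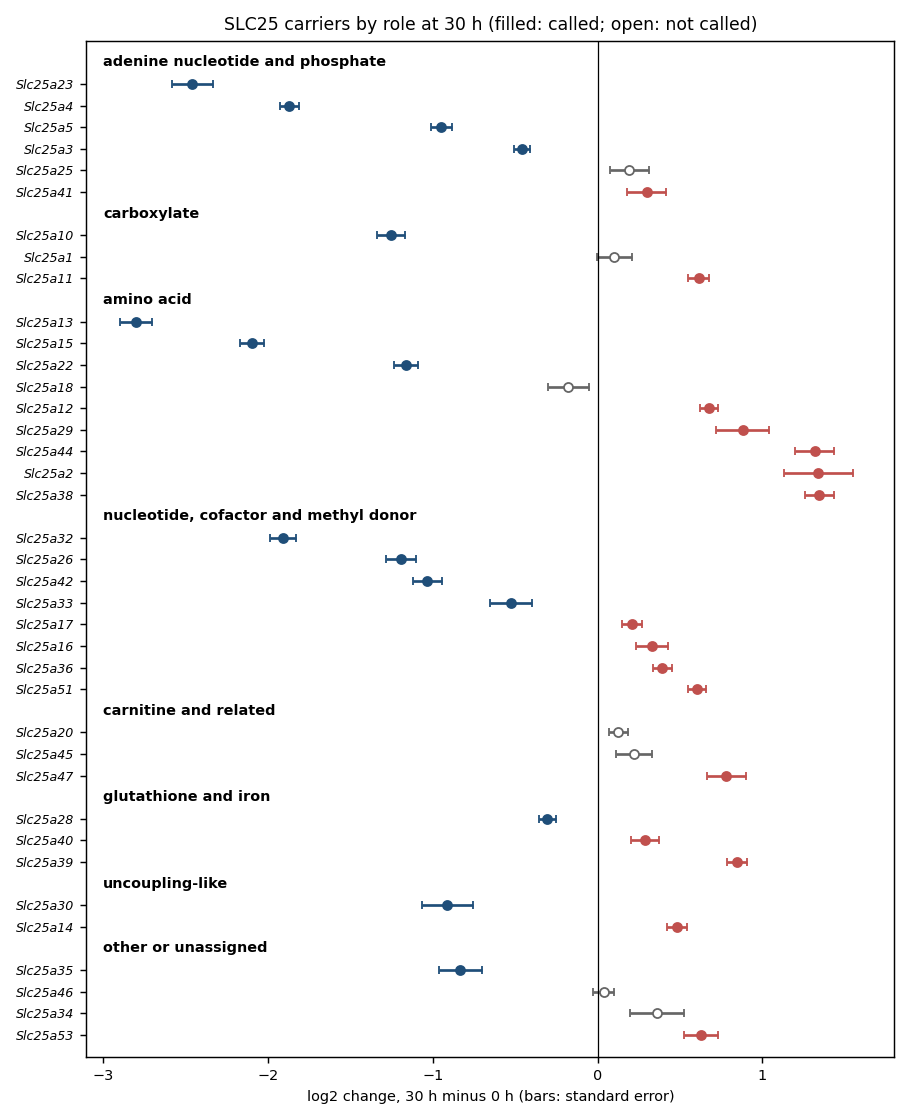
Log2 change from 0 h to 30 h (horizontal axis, bars are SE) for the 38 tested SLC25 members grouped by the substrate class of the carrier, with filled points where limma's adjusted p was under 0.05. Falls beyond 1 log2 unit appear in 4 of the classes, adenine nucleotide, carboxylate, amino acid and cofactor carriers.

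The calls accumulated with time. The first call against 0 h came by 3 h for 10 members, by 7 h for 12 more and by 14 h for a further 8. Slc25a3, Slc25a5 and Slc25a30 followed by 21 h and Slc25a28, Slc25a35 and Slc25a41 by 30 h, and Slc25a18 and Slc25a34 were called at no time. At 3 h, 3 members were higher and 7 lower, against 11.2% and 14.7% of all genes. The rises at 3 h were Slc25a11 at 0.34, Slc25a12 at 0.26 and Slc25a17 at 0.22, and the largest falls were Slc25a42 at -0.68, Slc25a10 at -0.61 and Slc25a22 at -0.59. At 7 h the counts were 10 and 9 against 15.3% and 16.3%, at 14 h they were 12 and 12 against 22.2% and 22.7%, and at 21 h they were 15 and 14 against 31.4% and 28.6%. Early counts depended on how arrays were scaled. With hybridisation-control scaling limma called 0 higher and 0 lower at 3 h, 1 and 1 at 7 h, and 12 and 4 at 14 h. Over all tested genes that scaling called 3.64% higher and 2.24% lower at 3 h. The shares were 4.31% and 5.13% at 7 h and 21.9% and 6.38% at 14 h. At an unadjusted p under 0.05 that scaling gave 4 higher and 4 lower at 3 h. It also moved the median of all genes, by 0.10 at 3 h, 0.23 at 14 h and 0.20 at 30 h. Without replicate 2 at 0 h the members called higher were 6 at 7 h and 7 at 14 h, and without replicate 3 at 0 h they were 5 at 3 h.

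Slc25a38 led the rises in both steps between 3 and 14 h, and the largest falls came in the steps after 14 h. From 3 to 7 h, 5 members were called higher and 1 lower, against 9.8% and 5.14% of all genes. The largest rises were Slc25a38 at 0.65, Slc25a47 at 0.58 and Slc25a53 at 0.43, and the fall was Slc25a32 at -0.42. From 7 to 14 h, 7 were higher and 8 lower, against 11.5% and 10.8%. Slc25a38 led the rises at 0.78, before Slc25a44 at 0.38 and Slc25a40 at 0.30. Slc25a23 led the falls at -0.60, before Slc25a32 at -0.55 and Slc25a4 at -0.37. From 14 to 21 h, 8 were higher and 11 lower, against 15.7% and 17.5%. Slc25a39 rose by 0.48, Slc25a14 by 0.43 and Slc25a38 by 0.37, while Slc25a15 changed by -0.97, Slc25a4 by -0.93 and Slc25a23 by -0.83. From 21 to 30 h, 5 were higher and 15 lower, against 18% and 22.5%. Here Slc25a44 rose by 0.84, Slc25a1 by 0.56 and Slc25a39 by 0.46, and the largest falls were Slc25a13 at -1.28, Slc25a10 at -0.83 and Slc25a23 at -0.75.

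The counts for adjacent times also moved with the scaling and with single arrays. With hybridisation-control scaling limma called 0 higher and 0 lower from 3 to 7 h, 3 and 0 from 7 to 14 h, 0 higher from 14 to 21 h and 4 lower from 21 to 30 h. Over all tested genes it called 0.998% higher and 1.36% lower from 3 to 7 h, and 10.3% and 1.24% from 7 to 14 h. The shares were 0.959% higher from 14 to 21 h and 5.92% lower from 21 to 30 h. At an unadjusted p under 0.05 that scaling gave 2 higher and 1 lower from 3 to 7 h, 0 lower from 7 to 14 h and 0 higher from 14 to 21 h. The 5 rises from 3 to 7 h became 3 without replicate 1 or 2 at 3 h, without replicate 1 at 7 h and without replicate 1 at 30 h, and 2 without replicate 3 at 3 h. The single fall became 2 without replicate 2 at 14 h. The 7 rises from 7 to 14 h became 4 without replicate 2 or 3 at 3 h and without replicate 1 or 2 at 7 h, and 2 without replicate 3 at 7 h or replicate 3 at 14 h.

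The courses were not all one-way. Slc25a14, Slc25a39, Slc25a44 and Slc25a53 were called lower than 0 h at 3 or 7 h and higher at 30 h. Under hybridisation-control scaling none of the 4 was called at 3 or 7 h, with Slc25a14 at -0.21 and adjusted p = 0.703 and Slc25a44 at -0.38 and adjusted p = 0.371 at 3 h. Slc25a1, Slc25a20, Slc25a25, Slc25a45 and Slc25a46 were called earlier and not at 30 h. Under hybridisation-control scaling the earlier call remained for Slc25a25, at 14 h, and was lost for the other 4. The called value of Slc25a46 at 14 h, -0.17, was 0.06 under that scaling. By mean level, 11 members were highest at 0 h and 13 at 30 h, while 9 were lowest at 0 h and 14 at 30 h.

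Pairs of carriers with like substrates were also compared within arrays. On each array the level of one was taken from that of the other, a difference that does not move with array scaling, for 7 pairs chosen with earlier results of these data known. Slc25a12 minus Slc25a13 was -0.37 ± 0.186 (SD, n = 3) at 0 h and 3.10 ± 0.0585 (SD, n = 3) at 30 h, a change of 3.47 log2 units. Slc25a23 minus Slc25a25 changed by -2.65, Slc25a4 minus Slc25a5 by -0.92 and Slc25a33 minus Slc25a36 by -0.92. Such sizes hold for the probe sets used. Another bright Slc25a4 probe set fell by only -1.05 at 30 h, near the -0.95 of Slc25a5. Slc25a39 minus Slc25a40 changed by 0.56. No size is given for the pairs with Slc25a2, which read near the 40th percentile at 0 h, and Slc25a18, which read near it at both times. In all 7 pairs the arrays at 30 h lay apart from those at 0 h. Single genes showed that separation in 72.3% of those tested, and other pairs of genes were not compared. The exact two-sided permutation test gave p = 0.1 for each, adjusted p = 0.1 over the 7, which is the smallest p that 3 arrays against 3 allow, so the test could not reach the threshold of 0.05.

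Called probe sets of 1 gene had the same sign at 30 h but not the same size. The members had 92 probe sets, of which 76 passed the filter, and 19 members had more than 1 that passed. In none of the 19 did called probe sets point in opposite directions at 30 h. For Slc25a51 the 3 probe sets gave 0.60, 1.51 and 2.23, and for Slc25a39 the range was 0.85 to 1.81, so the brightest probe set gave the smallest rise in both. Slc25a3 gave -0.46 on the bright probe set and -1.51 on the other, and Slc25a30 gave -0.91 on its brightest and -1.64 and -0.30 on the others tested, the last not called. The 2 tested probe sets of Slc25a25 gave 0.19 and -0.12 and neither was called. For Slc25a12 the rise of 0.68 was seen on the bright probe set, and the other 2 gave 0.12 and 0.20 and were not called. The 8 probe sets of Slc25a5 lay between -0.32 and -1.04. Those of Slc25a4 gave -1.87 on the brightest, -1.91 and -1.05 on others called lower, and -0.36 on a dim one not called. The brighter of the Slc25a46 probe sets gave 0.04, and the dimmer, called lower, gave -0.29.

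**Figure D4:**
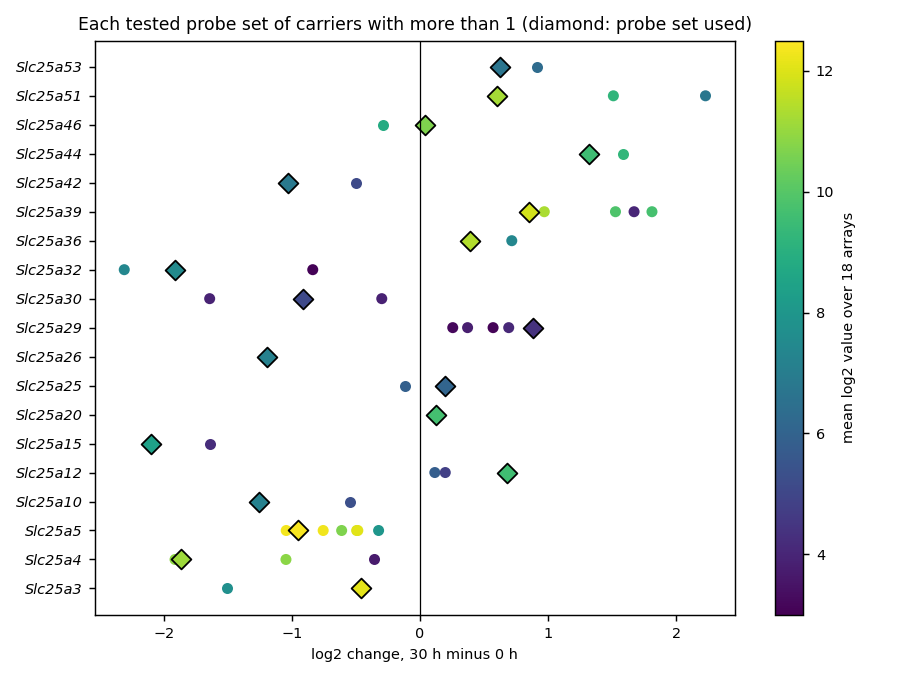
Log2 change from 0 h to 30 h (horizontal axis) of each tested probe set for the 19 SLC25 members with more than 1, with a diamond for the probe set used and colour for mean log2 level. Slc25a51 spans 0.60 to 2.23 and Slc25a5 spans -1.04 to -0.32.

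Genes that work with the carriers were read from lists chosen with earlier results known. Of their 60 tested genes, 22 were called higher and 27 lower at 30 h, against the same 36.6% and 33% of all genes. The TIM22 import path, which inserts carriers into the inner membrane, had 1 of 10 higher and 8 lower, with a median of -0.76. Timm8a1 changed by -2.29, Timm9 by -1.78 and Agk by -1.72, while the channel subunit Timm22 was not called at 0.03. Among SLC25 proteins under other symbols, Mtch2 rose by 0.51 and Mtch1 by 0.34, Ucp1 and Ucp3 were not called, and Ucp2 was not analysed here. Of 15 other mitochondrial membrane transporters 7 were higher and 6 lower, led by Sfxn4 at 2.61, Sfxn1 at -1.38 and Abcb10 at 1.37.

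Enzymes that use the carried substrates are given by path, beside shares of 36.6% higher and 33% lower over all genes; differences between paths were not tested. Of 6 mitochondrial folate enzymes, the users of what Slc25a32 imports, 5 were lower and 1 higher, with a median of -0.95, and Mthfd1l changed by -4.07, Mthfd2l by -1.46 and Aldh1l2 by -1.10. Among 6 genes of glycine use and heme synthesis 4 were higher and 2 lower. Alas2, the erythroid enzyme that joins glycine to succinyl-CoA, rose by 6.49, Ppox rose by 1.97 and Gcsh, of the glycine cleavage system, changed by -2.75. All 4 carnitine and fatty acid enzymes tested were higher, with a median of 1.12, and Crat rose by 2.80, Cpt1a by 1.57 and Cpt1c by 0.67, while Slc25a20 was not called. In the malate-aspartate shuttle Got2 changed by -0.91 and Mdh1 by 0.14, and the other 2 of 4 enzymes were not called. Of 4 genes of the ornithine and urea path Oat alone was called, at -0.90. Of 7 citrate and dicarboxylate enzymes 2 were higher and 4 lower, with Idh2 at -2.37, Me1 at -2.31 and Glud1 at -0.57. With hybridisation-control scaling the last counts were 1 and 2, and Glud1 was -0.36 with adjusted p = 0.0982. Under that scaling the call of Mdh1 was also lost, with adjusted p = 0.113, and 4 folate enzymes were lower.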

How the data were processed

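RNA of 18 cell samples was measured on 1-colour Affymetrix arrays, 3 at each of 6 times. The authors deposited 1 table of 45101 probe sets, in which the values are already processed and, from their range of 0.88 to 14.4 and like medians, lie on a log2 scale. How the authors summarised and normalised these deposited log2 values was not given in the sources used here, and a probe set's detection and saturation were not analysed here. Probe sets were named from the platform annotation: 34958 had 1 gene, 932 had several and 9211 had none listed. Each gene was read from its single-gene probe set with the highest mean. A gene was tested where at least 3 arrays read above their array's 40th percentile. limma 3.58.1 in R 4.3.3 fitted 1 mean per time, with 12 residual degrees of freedom, and p-values were adjusted by Benjamini-Hochberg over 12720 genes. The code was tested on simulated data.

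All 43 members may be named. Values on every array are given for the 8 largest called rises and the 8 largest called falls at 30 h, and each step names up to 3 rises and 3 falls. Partner lists name up to 3 called genes with the largest change, beside a few whose state bears on a member. The members, lists and pairs were chosen with earlier results of these data known. Same-numbered arrays did not deviate together, with a mean correlation of 0.012 over 45 pairs. No array was identical to another. The number of arrays limits the precision. The alternatives were hybridisation-control scaling on 18 control probe sets, other filters, other probe set rules, trended variance, the replicate block, fits to the compared arrays alone and leaving out each array.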

Additional observations from a re-analysis of the deposited data

How the results depend on the processing

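The 30 h split depended little on the processing: leaving out each array in turn gave 15 to 18 members higher and 15 to 16 lower, hybridisation-control scaling gave 16 and 12 with 28 called by the F test, and the ranges over left-out arrays were 33 to 37 for the F test and 20 to 23 higher and 27 lower for the partner genes. Over all tested genes the hybridisation-control scaling called 39.3% higher and 20.3% lower at 30 h. Early counts depended most on the processing. Scaling arrays on the hybridisation controls gave 0 higher and 0 lower at 3 h, 1 and 1 at 7 h and 4 lower at 14 h, all against 0 h, and for adjacent times 0 higher and 0 lower from 3 to 7 h, 3 higher and 0 lower from 7 to 14 h, 0 higher from 14 to 21 h and 4 lower from 21 to 30 h. The shares of all tested genes called under that scaling are given with the counts by time above. At an unadjusted p under 0.05 limma gave 4 and 4 at 3 h and 2 and 1 from 3 to 7 h under that scaling. With no filter on low values the members called higher were 6 at 7 h, 3 from 3 to 7 h and 4 from 7 to 14 h. From 3 to 7 h the count lower was 2 with the 60th percentile filter and with trended and robust variance, and 3 higher and 2 lower were called without the probe sets that can match several transcripts. Fitting only the arrays compared gave 1 higher from 7 to 14 h. With the replicate number as a block, 3 were higher from 3 to 7 h, and the block moved no other count of calls by over 1.5 times. Over the alternatives other than left-out arrays, 20 counts moved by over 1.5 times and 168 by less. The cause of these shifts was not tested.

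Of the counts with an array left out, 15 moved by over 1.5 times and 363 by less. Leaving out each array gave 2 to 5 higher and 6 to 8 lower at 3 h, 6 to 10 and 9 at 7 h, 7 to 12 and 9 to 13 at 14 h, and 12 to 16 and 14 at 21 h. For adjacent times the ranges were 2 to 7 and 1 to 2, 2 to 7 and 6 to 9, 7 to 10 and 10 to 12, and 5 to 6 and 14 to 16. The uncalled change of Slc25a18 at 30 h turned to 0.026 with hybridisation-control scaling and ran from -0.32 to 0.0016 over the left-out arrays, the last without replicate 2 at 30 h, and that of Slc25a46 to -0.13 with the mean of its probe sets. Of single members' values at 30 h, 994 kept their direction and side of the threshold, 11 gained a call, 10 lost one and 3 turned. Dim probe sets limit what can be read from their sizes. Slc25a18, and Slc25a2 at 0 h, read near the array's 40th percentile, and Slc25a29 and Slc25a41 read near the array median.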
